A study of Oryctolagus cuniculus with 16 samples.

Results

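The collagen chain genes are the genes of the rabbit table whose symbol is COL, a number, A and a number, each of which codes for a single chain of a collagen. Of the 20255 genes in the table, 42 were members by this rule, which uses names alone. They were grouped by the kind of collagen they build: 8 fibrillar, 7 cartilage, 7 basement membrane, 6 fibril-associated (FACIT, fibril-associated collagens with interrupted triple helices) and 14 others. Each gene was put in a single class. Types II and XI, which also form fibrils, and type IX, which is also a FACIT, were counted as cartilage only. The basement membrane gene COL18A1, the FACIT gene COL20A1 and the type VI gene COL6A4 were not found under those symbols. Transcript levels were compared between rabbits with Perthes disease and control rabbits, to ask which collagen chains differ when the blood supply of the femoral head is interrupted.

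The Perthes group was 5 wild-type rabbits whose hip was opened at 8 weeks of age, with an elastic suture that is not absorbed tied around the femoral neck and the ligamentum teres transected. The control group was 3 healthy wild-type rabbits, with no operation described. The age at collection, the time after surgery and the sex were not given in the sources used here. The tissue was the femoral head in both groups, so each library mixes cartilage, bone, marrow and vessels from a single rabbit, and in such bulk samples fewer cells of a type and less RNA per cell cannot be told apart. Because the Perthes rabbits were operated on and the controls are not described as sham-operated, the interruption of blood flow and the wound of the operation cannot be told apart either.

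Collagens are extracellular proteins in which 3 chains, alike or different, wind around each other into a rope-like helix. Types I, III and V assemble into the fibrils of bone, vessels and connective tissue, types II, IX and XI into the fibrils of cartilage, type X into the matrix around hypertrophic chondrocytes, and type IV into the sheets of basement membranes. Chains that share a molecule are made in the same cell, so the ratio of their transcripts can be followed from sample to sample.

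Each library held 26757087 to 29461482 counts, estimated numbers of reads per gene, so that precision was set by the spread between rabbits for all but the lowest members. Levels are given as CPM, a gene's counts for every 1000000 counts of a library, scaled between libraries by the trimmed mean of M-values (TMM). Rabbits are numbered as in their sample codes, and values are listed for Perthes rabbits 1 to 5 and then control rabbits 1 to 3. Perthes rabbit 4 stood apart from the other libraries on the second principal component of all genes, which held 13.1% of the variance (-78.4, against -7.51 to 27.5 in the other 7). The chondrocyte markers *ACAN*, *SOX9*, *HAPLN1*, *MATN1*, *MATN3* and *CNMD* summed to 15284 CPM in that rabbit and to 2505 to 8341 CPM in the other 7, with *MATN1* at or near 0 in every library. Skeletal muscle markers summed to 18.8 CPM or less in every library.

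Collagen chain genes took up a large part of the RNA in both groups. They held 17.7, 29.1, 29.9, 29.04 and 22.3% of all counts in the Perthes rabbits and 17.6, 22.1 and 24.4% in the controls. The ranges overlapped, and the lowest value of each group was nearly the same. Leaving the members out of the computation of the TMM factors changed no call of a collagen chain gene.

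A total of 40 members passed the filter on low counts and were tested with edgeR's quasi-likelihood test, with p-values adjusted by Benjamini-Hochberg over all 15305 genes tested. Of the 40, 10 were higher in Perthes rabbits at an adjusted p below 0.05, which is 25%, against 6.21% of all genes tested. They were *COL3A1*, *COL5A2* and *COL5A3* (fibrillar), *COL4A1* and *COL4A2* (basement membrane), *COL12A1* (FACIT), and *COL6A2*, *COL6A3*, *COL8A1* and *COL8A2* (others). By the same test 0 members were lower, against 8.86% of all genes. At an unadjusted p below 0.05 the numbers were 18 higher and 2 lower, against 4883 of the 15305 genes tested in either direction. DESeq2 called 16 members higher and 1 lower, *COL4A3*, against 1700 genes higher and 1917 lower in the whole table of 20255. The estimated difference was positive for 34 of the 40 members (29 of the 39 then tested without Perthes rabbit 4), and the median log2 fold change was 0.97, compared with 0.02 over all genes. In 14 members every Perthes rabbit was above every control, against 11.2% of all genes, and in 1 member, *COL4A3*, every Perthes rabbit was below, against 13.9%. The other 2 members, *COL17A1* and *COL6A5*, had at most 11 counts in any library, and an exact two-sided permutation test over the 56 divisions of the rabbits gave p = 0.661 and p = 0.929, or 0.929 for both after Benjamini-Hochberg adjustment over the 2.

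The calls rested on few control rabbits. Without control rabbit 2 no member passed (13 were higher and 2 lower at an unadjusted p below 0.05), nor did any of the other genes of the table, and without control rabbit 1 only *COL4A1* and *COL4A2* passed. Leaving out Perthes rabbit 1 left 6 higher, Perthes rabbit 3 or Perthes rabbit 5 left 4, Perthes rabbit 2 left 8, Perthes rabbit 4 left 9, and control rabbit 3 left 11. *COL4A1* and *COL4A2* passed in 7 of these 8 fits and *COL5A3* and *COL8A1* in 6, and *COL3A1*, whose adjusted p was nearest to 0.05, passed in 1. No called member changed direction in any of them.

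**Figure D1:**
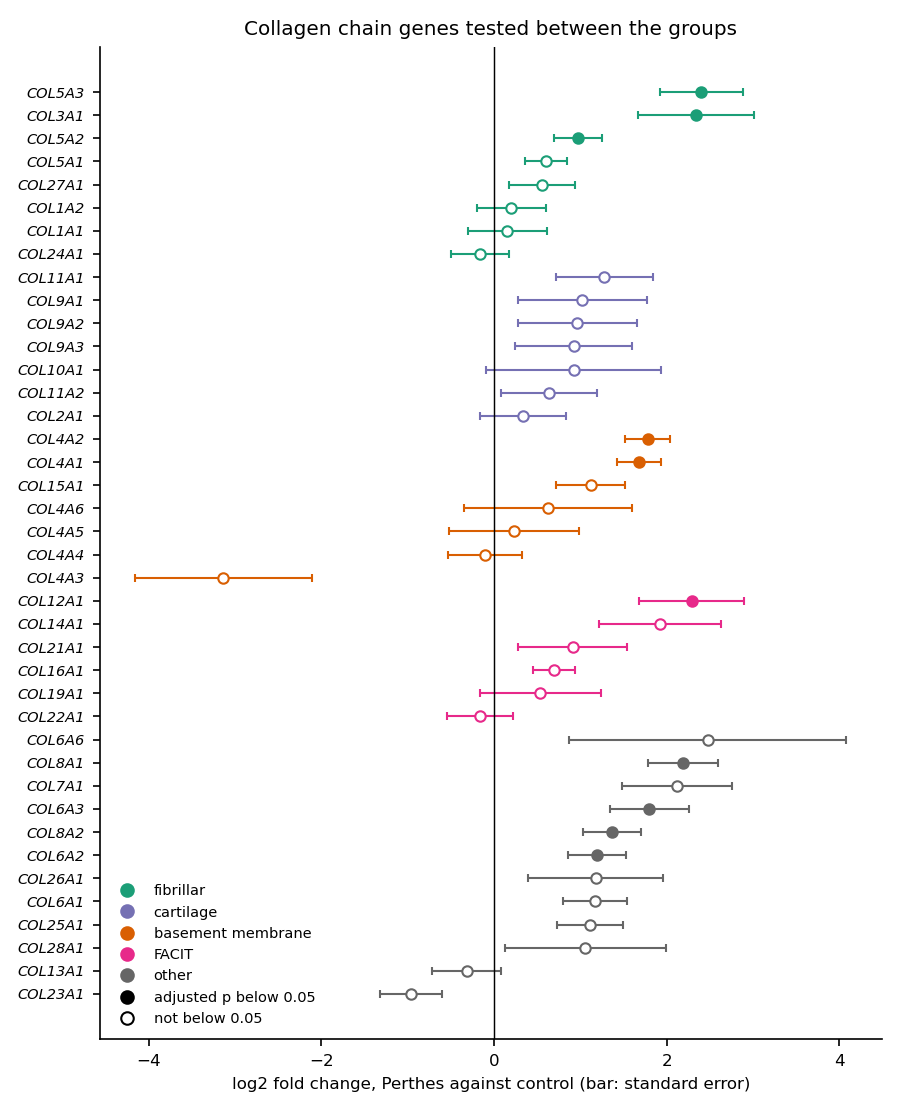
Log2 fold change of the 40 tested collagen chain genes, Perthes (5 rabbits) against control (3 rabbits), with bars for the standard error, grouped and coloured by class. Filled points mark the 10 genes with an adjusted p below 0.05, all to the right of 0, and *COL4A3* lies farthest to the left at -3.13.

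Among the fibrillar chains, the main bone chains overlapped between the groups and the type III chain and a pair of type V chains were higher. *COL1A1*, the first chain of type I collagen and the main protein chain of bone, had 44666, 143897, 126119.7, 66399 and 75092 CPM in the Perthes rabbits and 72816, 90894 and 82141 CPM in the controls. The Perthes rabbits lay on both sides of the controls, with rabbit 1 lowest of all 8 and rabbits 2 and 3 highest (log2 fold change 0.15 ± 0.46 (SE), adjusted p = 0.842). *COL1A2*, its partner chain, averaged 67713 ± 24071 CPM (SD, n = 5) and 58896 ± 10949 CPM (SD, n = 3), with a log2 fold change of 0.20 ± 0.40 (SE), adjusted p = 0.761.

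*COL3A1* codes for the chain of type III collagen, a fibrillar collagen of vessels, granulation tissue and other extensible tissue. It stood at 20732, 11736, 12706, 16274 and 16016 CPM in the Perthes rabbits and at 780.5, 1634 and 6747 CPM in the controls. All Perthes rabbits were above all controls, and control rabbit 3 was several-fold above the other 2 controls. The log2 fold change was 2.34 ± 0.67 (SE), adjusted p = 0.0474, and it was 3.68 without control rabbit 3. *COL3A1* made up 12.7, 3.78, 3.94, 5.29 and 7.16% of all collagen chain counts in the Perthes rabbits and 0.449, 0.784 and 2.89% in the controls.

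The type V chains enter fibrils together with type I collagen and regulate fibril diameter. *COL5A2* had 3401, 3464, 3085, 3292 and 3639 CPM in the Perthes rabbits, a narrow range, and 1117, 1695 and 2355 CPM in the controls, which were lower in every rabbit (log2 fold change 0.97 ± 0.28 (SE), adjusted p = 0.0456). *COL5A2* and *COL3A1* are neighbours on the chromosome in the mOryCun1.1 annotation. *COL5A3*, the third type V chain, was at 269.5, 179, 215, 556 and 496 CPM in the Perthes rabbits and 39.3, 61.6 and 93.7 CPM in the controls. Perthes rabbits 4 and 5 were highest, and even the lowest Perthes rabbit exceeded the highest control (log2 fold change 2.40 ± 0.48 (SE), adjusted p = 0.0160). *COL5A1* averaged 1102 ± 219.8 CPM (SD) in the Perthes rabbits and 728 ± 116 CPM in the controls, with a log2 fold change of 0.60 ± 0.24 (SE), adjusted p = 0.128. A further entry described as an alpha-1(V)-like chain, *LOC100340124*, averaged 308 ± 66.5 and 212 ± 56.02 CPM (log2 fold change 0.54 ± 0.25 (SE), adjusted p = 0.176), so reads of *COL5A1* may have been split between both entries and its value is uncertain.

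The last 2 fibrillar members are minor chains. *COL27A1*, expressed mostly in cartilage, averaged 385 ± 157 CPM (SD) in the Perthes rabbits and 262 ± 113 CPM in the controls (log2 fold change 0.56 ± 0.38 (SE), adjusted p = 0.343). *COL24A1* had the only negative estimate of the class, with 111, 105, 108, 92.5 and 76.0 CPM in the Perthes rabbits and 46.8, 127 and 156 CPM in the controls. The groups overlapped fully (log2 fold change -0.16 ± 0.34 (SE), adjusted p = 0.778).

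**Figure D2:**
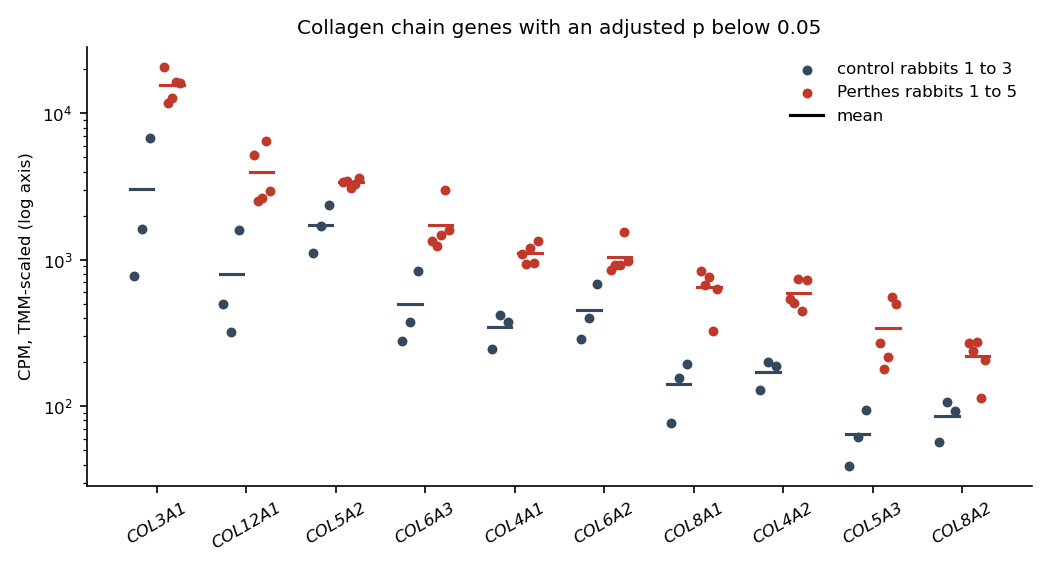
CPM on a log axis of the 10 collagen chain genes with an adjusted p below 0.05, with a point for each rabbit and a line at the group mean. In each gene the 5 Perthes rabbits lie above the 3 controls, and the controls spread most for *COL3A1*, from 780.5 to 6747 CPM.

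The network-forming basement membrane chains *COL4A1* and *COL4A2*, which build the type IV collagen present under endothelium in most tissues, gave the smallest adjusted p of all members. *COL4A1* measured 1087, 939, 1213, 953 and 1353 CPM in the Perthes rabbits and 246, 418 and 377 CPM in the controls. *COL4A2*, its partner and neighbour on the chromosome, measured 541, 508, 737, 450.3 and 728 CPM and 129, 201 and 187 CPM. For both chains the highest control was below the lowest Perthes rabbit, with no library far from its group. The log2 fold changes were 1.68 ± 0.25 (SE), adjusted p = 0.0118, and 1.78 ± 0.26 (SE), adjusted p = 0.0118, or 3.19-fold and 3.44-fold. The ratio of *COL4A1* to *COL4A2* counts was 1.64 to 2.12 in the Perthes rabbits and 1.91 to 2.08 in the controls, so the ranges of the ratio overlapped while both levels differed. Endothelial markers (*PECAM1*, *CDH5*, *KDR*, *EMCN*, *VWF*, *TEK*, *STAB2* and *ERG*) summed to 309.9 to 469 CPM in the Perthes rabbits and 384 to 478 CPM in the controls, with 0 of 8 called higher and 1, *ERG*, called lower. Smooth muscle and pericyte markers (*ACTA2*, *MYH11*, *TAGLN*, *RGS5*, *PDGFRB*, *CSPG4* and *NOTCH3*) summed to 1024 to 1481 CPM in the Perthes rabbits and 512 to 798 CPM in the controls. By edgeR's test *ACTA2* and *TAGLN* were called higher. The others of this list had positive estimates and were not called (adjusted p from 0.0859 for *NOTCH3* to 0.393 for *PDGFRB*). The part of smooth muscle cells and pericytes in the type IV values was not tested.

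*COL4A3* and *COL4A4* build the type IV collagen of the kidney glomerulus together with *COL4A5*, and they too are neighbours on the chromosome. *COL4A3* had 1.32, 47.0, 4.41, 7.35 and 1.87 CPM in the Perthes rabbits and 81.4, 130.4 and 114 CPM in the controls. All 5 Perthes rabbits were below the controls, and Perthes rabbit 2 was well above the other 4. The log2 fold change was -3.13 ± 1.02 (SE), adjusted p = 0.0683, which missed the threshold, and without Perthes rabbit 2 it was -4.86 (adjusted p = 0.00207). *COL4A4*, in contrast, had 1.65, 1.39, 1.73, 2.98 and 0.647 CPM in the Perthes rabbits and 1.57, 1.76 and 2.06 CPM in the controls, with a log2 fold change of -0.10 ± 0.43 (SE), adjusted p = 0.891. The ratio of counts of the *COL4A3* entry to *COL4A4* was 51.8 to 73.9 in the controls and 0.796 to 33.9 in the Perthes rabbits, without overlap. The summed level of 4 erythroid markers (*ALAS2*, *SLC4A1*, *EPOR* and *AHSP*) was also lower in every Perthes rabbit than in any control. It stood at 28.2, 1724, 315, 350.1 and 64.8 CPM in the Perthes rabbits and 4329, 4181 and 3567 CPM in the controls, with *EPOR* called lower of the 4. Perthes rabbit 2 was highest and Perthes rabbit 1 lowest of the Perthes group for both the *COL4A3* entry and this sum. The same held for the neutrophil, B cell and megakaryocyte marker sums, which were also lower in every Perthes rabbit than in any control. Among the controls, rabbit 1 was lowest for the *COL4A3* entry and highest for the erythroid sum. The part of erythroid or other blood cells in the counts of the *COL4A3* entry was not tested. Whether the reads of this entry come from *COL4A3* itself was not checked against a genome, so its level and its ratio to *COL4A4* are uncertain.

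The remaining basement membrane members were *COL15A1*, a proteoglycan collagen of the basement membrane zone, and the low chains *COL4A5* and *COL4A6*. *COL15A1* averaged 447 ± 199 CPM (SD) in the Perthes rabbits and 206 ± 84.1 CPM in the controls. Its groups did not overlap, but the adjusted p was above the threshold (log2 fold change 1.12 ± 0.40 (SE), adjusted p = 0.0912). *COL4A5* and *COL4A6* were below 3 CPM in every library, with log2 fold changes of 0.23 ± 0.75 (SE) and 0.63 ± 0.98 (SE), and differences of this size were not detectable at these levels.

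The 7 cartilage chains all had positive estimates, and 0 passed the test, with 1 at an unadjusted p below 0.05 and 0 called by DESeq2. Their group ranges overlapped in every case, and Perthes rabbit 4 was the highest library for each of the 7. *COL2A1*, the single chain of type II collagen and the main collagen of cartilage, had 29008, 36710.2, 68463, 116594 and 51419 CPM in the Perthes rabbits and 42826, 43129 and 57453 CPM in the controls. Rabbit 4 was highest and rabbit 1 lowest, with the 3 controls between them (log2 fold change 0.34 ± 0.50 (SE), adjusted p = 0.671). *COL11A1*, a type XI chain that lies in the core of the same fibrils, had the largest estimate, with 4568, 2509, 4105, 11680.0 and 4099 CPM in the Perthes rabbits and 2038, 1173 and 3452 CPM in the controls. Perthes rabbit 2 fell among the controls and the other 4 were above them (log2 fold change 1.28 ± 0.56 (SE), adjusted p = 0.150). *COL11A2*, its partner chain, had a log2 fold change of 0.63 ± 0.56 (SE), adjusted p = 0.465.

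*COL9A1*, *COL9A2* and *COL9A3* code for the 3 chains of type IX collagen, which decorates the surface of cartilage fibrils. Their log2 fold changes were 1.02 ± 0.75 (SE), 0.96 ± 0.69 (SE) and 0.92 ± 0.68 (SE), with adjusted p = 0.379, 0.367 and 0.381. *COL9A1* averaged 1365 ± 1341 CPM (SD) in the Perthes rabbits and 673 ± 334 CPM in the controls. *COL9A2* averaged 710.3 ± 703 and 364 ± 143 CPM, and *COL9A3* 633 ± 607 and 334 ± 139 CPM, so for all 3 chains the SD of the Perthes group was close to its mean. *COL10A1*, the marker chain of hypertrophic cartilage, had 1548, 434, 2121, 7774 and 775 CPM in the Perthes rabbits and 906, 253 and 2851 CPM in the controls, a spread of more than 10-fold within either group (log2 fold change 0.92 ± 1.01 (SE), adjusted p = 0.562).

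The size of these estimates depended on Perthes rabbit 4. Without it the log2 fold change was -0.04 for *COL2A1*, 0.21 for *COL9A1*, 0.15 for *COL9A2*, 0.15 for *COL9A3*, -0.13 for *COL10A1*, 0.03 for *COL11A2* and 0.78 for *COL11A1*. The estimates for *COL2A1* and *COL10A1* turned negative, and those of the other 5 chains were smaller than with all 8 rabbits. The chondrocyte markers, with 0 called of the 5 tested, also had their highest sum in this rabbit, and hypertrophic chondrocyte markers (*IHH*, *PTH1R*, *PANX3* and *MEF2C*) summed to 965 CPM there and to 281 to 491 CPM in the other 7 libraries. Their part in the cartilage collagen values was not tested. The estimates of the cartilage chains also depended on the controls, each being larger without control rabbit 3 and smaller without control rabbit 2. *COL10A1* was 2.125 without control rabbit 3 and 0.43 without control rabbit 2, and *COL11A1* was 1.75 and 0.97.

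**Figure D3:**
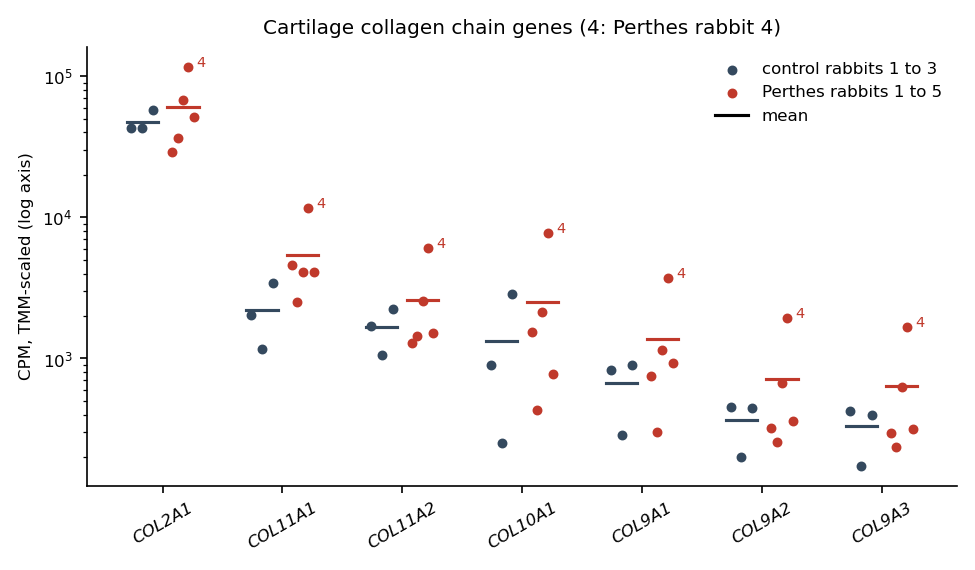
CPM on a log axis of the 7 cartilage collagen chain genes, with a point for each rabbit, a line at the group mean and a 4 beside Perthes rabbit 4. That rabbit is the highest point for every gene, from 1684 CPM for *COL9A3* to 116594 CPM for *COL2A1*, and the other 4 Perthes rabbits lie close to or among the controls.

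Of the 6 FACIT members, which attach to the surface of fibrils and do not form fibrils themselves, *COL12A1* was called. *COL12A1*, the type XII chain found on type I fibrils of tendon, ligament and periosteum, had 5182, 2533, 2638, 6453 and 2931 CPM in the Perthes rabbits and 498, 322 and 1597 CPM in the controls. Rabbits 1 and 4 were highest, and control rabbit 3 was nearer to the lowest Perthes rabbits than to the other 2 controls. The log2 fold change was 2.29 ± 0.61 (SE), adjusted p = 0.0359, and without control rabbit 3 it was 3.27. *COL14A1*, a related chain, averaged 433 ± 129 CPM (SD) and 114 ± 137 CPM in groups that did not overlap. Its log2 fold change of 1.92 ± 0.71 (SE), adjusted p = 0.0969, did not pass, and it became 3.61 (adjusted p = 0.0190) without control rabbit 3.

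*COL16A1* averaged 854 ± 157 CPM (SD) in the Perthes rabbits and 528 ± 129.6 CPM in the controls (log2 fold change 0.69 ± 0.25 (SE), adjusted p = 0.0874). *COL22A1*, a chain of tissue junctions such as that of muscle and tendon, had the only negative estimate of the class. It measured 52.9, 196, 173, 142 and 91.2 CPM in the Perthes rabbits and 116, 173 and 151 CPM in the controls, with overlapping groups (log2 fold change -0.16 ± 0.38 (SE), adjusted p = 0.797). *COL21A1* and *COL19A1* were low, at 6.63 ± 3.99 and 0.712 ± 0.551 CPM (SD) in the Perthes rabbits and 3.52 ± 2.70 and 0.489 ± 0.329 CPM in the controls, with log2 fold changes of 0.91 ± 0.63 (SE) and 0.54 ± 0.70 (SE). *COL19A1* is the neighbour of *COL9A1* on the chromosome.

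The type VI chains form beaded filaments around cells, among them chondrocytes and fibroblasts. *COL6A3*, the longest of its usual 3 chains, had 1351, 1237, 1468, 2997 and 1590.0 CPM in the Perthes rabbits and 279.7, 375 and 836 CPM in the controls. Rabbit 4 was highest, and the other 4 Perthes rabbits were within a narrow range above every control (log2 fold change 1.80 ± 0.46 (SE), adjusted p = 0.0310). *COL6A2* measured 857, 923, 925, 1539.8 and 977 CPM and 288, 399 and 681 CPM, again with rabbit 4 highest and no overlap (log2 fold change 1.20 ± 0.33 (SE), adjusted p = 0.0432). *COL6A1*, the neighbour of *COL6A2* on the chromosome, averaged 908 ± 289.6 CPM (SD) and 403 ± 201 CPM, likewise without overlap, and its log2 fold change of 1.17 ± 0.37 (SE), adjusted p = 0.0624, did not pass. Without Perthes rabbit 4 the log2 fold changes were 1.51 for *COL6A3*, 1.01 for *COL6A2* and 0.95 for *COL6A1*, with adjusted p = 0.0318, 0.0498 and 0.0782.

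*COL6A6*, an alternative type VI chain, had the largest log2 fold change of these 14 members and little data behind it. It was at 0.540, 0, 5.21, 0.255 and 0.102 CPM in the Perthes rabbits and 0.0715, 0.0705 and 0.499 CPM in the controls. Most of the Perthes signal came from rabbit 3, and the difference was not detectable beyond this spread (log2 fold change 2.47 ± 1.61 (SE), adjusted p = 0.322). Without Perthes rabbit 1 or 3 the gene failed the filter on low counts.

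The type VIII chains *COL8A1* and *COL8A2* form short-chain networks in vessel walls and in the cornea. *COL8A1* stood at 845, 670.2, 765, 328 and 635 CPM in the Perthes rabbits and 76.6, 155 and 196 CPM in the controls. *COL8A2* stood at 269, 238, 276, 113 and 208 CPM and 56.8, 107 and 93.5 CPM. For both chains Perthes rabbit 4 was the lowest of its group and still above the controls. The log2 fold changes were 2.19 ± 0.40 (SE), adjusted p = 0.0136, and 1.37 ± 0.33 (SE), adjusted p = 0.0272.

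The other members are chains of minor collagens. *COL7A1*, which forms the anchoring fibrils of skin, was at 11.4 ± 9.08 CPM (SD) in the Perthes rabbits and 2.63 ± 0.733 CPM in the controls, without overlap. Its log2 fold change of 2.12 ± 0.64 (SE), adjusted p = 0.0543, was just above the threshold. The transmembrane collagens *COL13A1*, *COL23A1* and *COL25A1* had estimates of both signs. *COL23A1* had the most negative estimate of the 14, with 3.38, 6.40, 3.75, 2.26 and 3.40 CPM in the Perthes rabbits and 10.9, 6.24 and 5.32 CPM in the controls, where the groups overlapped (log2 fold change -0.96 ± 0.36 (SE), adjusted p = 0.0989). Without Perthes rabbit 2 it passed as lower (log2 fold change -1.23, adjusted p = 0.0313). *COL13A1* averaged 16.4 ± 7.03 and 20.3 ± 9.34 CPM (SD), with a log2 fold change of -0.31 ± 0.40 (SE), adjusted p = 0.623. *COL25A1* averaged 16.4 ± 5.63 and 7.59 ± 3.48 CPM (SD), with a log2 fold change of 1.11 ± 0.38 (SE), adjusted p = 0.0779. *COL26A1* and *COL28A1* were near 1 CPM or below on average, with log2 fold changes of 1.18 ± 0.78 (SE) and 1.05 ± 0.93 (SE).

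By class, the median log2 fold change was 0.58 for the 8 fibrillar members with 3 called, 0.92 for the 7 cartilage members with 0 called, 0.63 for the 7 basement membrane members with 2 called, 0.80 for the 6 FACIT members with 1 called and 1.19 for the 12 tested others with 4 called. No class held a member called lower. Over all genes tested, 6.21% were called higher and 8.86% lower. The classes hold 6 to 12 tested members each and were not compared by a test.

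The make-up of the collagen counts was then described as shares, with no test. The fibrillar class, without types II and XI, held 69.1, 83.4, 72.0, 46.1 and 68.5% of collagen chain counts in the Perthes rabbits. In the controls it held 70.2, 76.2 and 68.4%. Cartilage chains held 23.2, 13.5, 24.7, 48.5 and 26.6% and 28.3, 22.2 and 29.01%. These large shares overlapped between the groups. The extremes were Perthes rabbits 2 and 4, the former rich in the fibrillar class and the latter in the cartilage class. *COL2A1*, which also forms fibrils but was counted as cartilage, held 37.9% in Perthes rabbit 4. The small shares did not overlap. Basement membrane chains held 0.580 to 1.20% in the Perthes rabbits against 0.332 to 0.464% in the controls. FACIT chains without type IX held 1.29 to 3.99% against 0.498 to 1.15%, and the other chains 1.23 to 2.52% against 0.557 to 1.06%. The FACIT separation applies to this grouping only, as shares with type IX counted as FACIT were not computed.

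**Figure D4:**
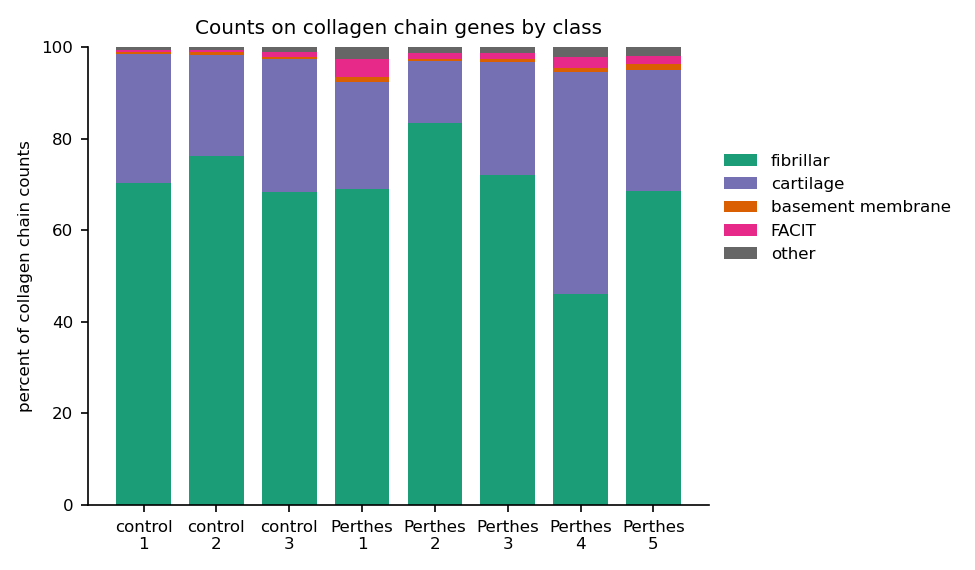
Percent of the counts on collagen chain genes held by each class, as a stacked bar for each of the 8 rabbits. Types II, IX, X and XI are counted as cartilage. Fibrillar and cartilage chains fill over 90% of every bar, Perthes rabbit 4 has the largest cartilage share (48.5%), and the 3 smaller classes take more of each Perthes bar than of each control bar.

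Ratios of counts between chains that can share a molecule are again described without a test. Chains of some pairs kept a nearly fixed ratio in all 8 rabbits. The ratio of *COL9A3* to *COL9A2* was 0.870 to 0.934 in the Perthes rabbits and 0.872 to 0.949 in the controls, although the level of either gene varied several-fold. The ratio of *COL6A1* to *COL6A2* was 0.771 to 0.919 and 0.822 to 0.921, and that of *COL1A1* to *COL1A2* was 1.05 to 1.47 and 1.23 to 1.57, with overlapping groups in each case. In 3 further pairs the ratio varied more and the groups overlapped. *COL9A1* to *COL9A2* was 1.18 to 2.55 in the Perthes rabbits and 1.45 to 2.03 in the controls, *COL5A2* to *COL5A1* was 2.44 to 4.73 and 1.85 to 2.82, and the low pair *COL4A5* to *COL4A6* was 1.20 to 5.20 and 1.82 to 5.33.

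Other pairs had ratios whose groups did not overlap. *COL8A1* to *COL8A2* was 3.15, 2.82, 2.77, 2.90 and 3.05 in the Perthes rabbits and 1.35, 1.45 and 2.09 in the controls, so that the ratio was nearly the same in all 5 Perthes rabbits, Perthes rabbit 4 with its lower levels included. *COL6A3* to *COL6A2* was 1.58, 1.34, 1.59, 1.95 and 1.63 against 0.971, 0.938 and 1.23. *COL11A1* to *COL11A2* was 3.52, 1.74, 1.61, 1.92 and 2.70 against 1.20, 1.11 and 1.55, with Perthes rabbit 1 highest. Hence in these 3 pairs the count of the first chain relative to its partner was higher in every Perthes rabbit than in any control. The ratios of *COL9A3* to *COL9A2*, *COL5A2* to *COL5A1*, *COL6A3* to *COL6A2* and *COL11A1* to *COL11A2* were added after the data had been seen.

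A few ratios set chains of different molecules side by side. *COL3A1* to *COL1A1* was 0.464, 0.0816, 0.101, 0.245 and 0.213 in the Perthes rabbits and 0.0107, 0.0180 and 0.0821 in the controls, where Perthes rabbit 2 and control rabbit 3 were almost equal. *COL11A1* to *COL2A1* was 0.0600 to 0.157 against 0.0272 to 0.0601, and *COL10A1* to *COL2A1* 0.0118 to 0.0667 against 0.00587 to 0.0496. Both overlapped, the former only between Perthes rabbit 3 and control rabbit 3. *COL12A1* to *COL1A1*, likewise added after the data had been seen, was 0.0176 to 0.116 against 0.00354 to 0.0194, with overlap.

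**Figure D5:**
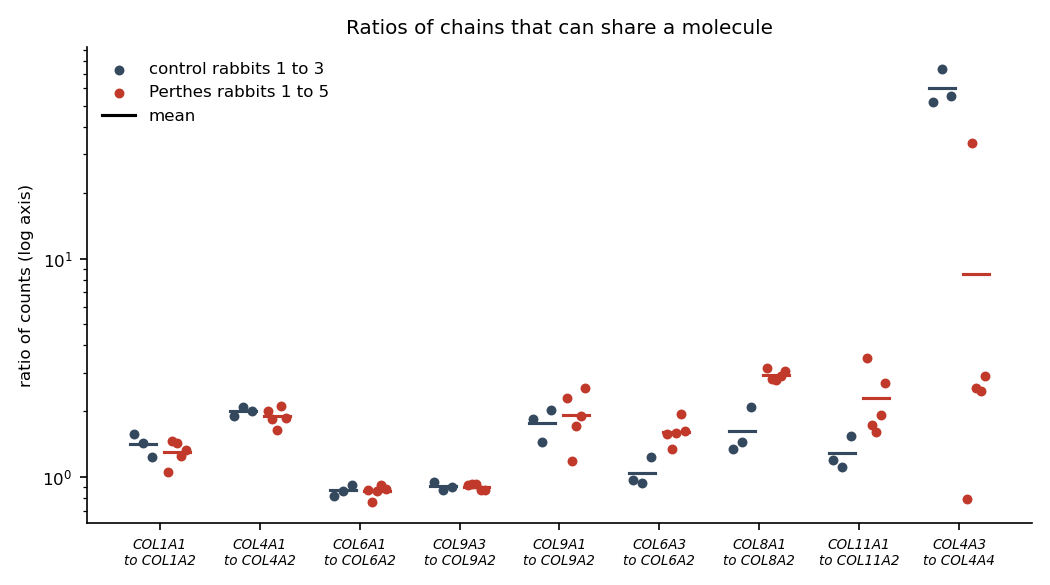
Ratio of counts on a log axis for 9 pairs of chains that can share a molecule, with a point for each rabbit and a line at the group mean. *COL6A3* to *COL6A2*, *COL8A1* to *COL8A2* and *COL11A1* to *COL11A2* were higher in every Perthes rabbit than in any control and *COL4A3* to *COL4A4* was lower, while the other 5 pairs overlapped.

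Collagen chains are hydroxylated, folded, exported and trimmed by enzymes and chaperones, and 28 genes of a list of 33 of these were in the table. Of the 27 tested, 8 were higher in Perthes rabbits and 0 lower by edgeR's test, against 6.21% and 8.86% of all genes. An unadjusted p below 0.05 was seen in 15, against 4883 of all 15305 genes tested. A positive estimate was found in 26, and the median log2 fold change was 0.66. DESeq2 called 13 higher, against 1700 of the 20255 genes of the table. In 11 every Perthes rabbit was above every control, against 11.2% of all genes. *P4HA3*, a catalytic subunit of prolyl 4-hydroxylase, which hydroxylates the prolines that stabilise the helix, had 33.3, 51.2, 38.8, 26.96 and 40.6 CPM in the Perthes rabbits and 4.97, 5.54 and 10.5 CPM in the controls. The lowest Perthes rabbit was more than 2-fold above the highest control (log2 fold change 2.44 ± 0.32 (SE), adjusted p = 0.0118). *P4HA2*, a related subunit, had 157, 197, 228, 261 and 273 CPM and 73.7, 121 and 145 CPM (log2 fold change 0.98 ± 0.27 (SE), adjusted p = 0.0427).

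*P3H3*, a member of the prolyl 3-hydroxylase family, had 83.0, 111, 118, 107 and 107 CPM in the Perthes rabbits and 39.0, 50.2 and 58.3 CPM in the controls (log2 fold change 1.097 ± 0.19 (SE), adjusted p = 0.0133). *PLOD1*, a lysyl hydroxylase that prepares chains for cross-linking, had 163, 214, 189.7, 382 and 275 CPM and 114, 97.7 and 140.5 CPM (log2 fold change 1.06 ± 0.30 (SE), adjusted p = 0.0440). In both genes all Perthes rabbits were above all controls. The other 4 called were *P3H1*, *PPIB*, *P3H4* and *FKBP10*, which act on folding and hydroxylation of the chains in the endoplasmic reticulum, with log2 fold changes of 0.82, 0.63, 0.88 and 0.94 (SE 0.20, 0.17, 0.22 and 0.25). *SPARC*, a collagen-binding matrix protein and the list's member with the highest CPM, was at 13568, 19529.9, 20574, 22956 and 16122 CPM in the Perthes rabbits and 11251, 18015 and 21717 CPM in the controls. As with the type I chains, its groups overlapped (log2 fold change 0.13 ± 0.33 (SE), adjusted p = 0.820). Without control rabbit 2, 0 of the list passed, without control rabbit 1 the number was 1, and without Perthes rabbit 3 or Perthes rabbit 5 it was 2.

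Of the receptors that bind collagen, 9 of 11 listed were in the table and tested. All 9 estimates were positive, with a median log2 fold change of 0.40, and 2 were called higher and 0 lower by edgeR, as by DESeq2, against 6.21% and 8.86% of all genes in edgeR. *ITGA11*, an integrin alpha chain that binds fibrillar collagen on mesenchymal cells, had 124, 118, 134, 117 and 137 CPM in the Perthes rabbits and 45.3, 61.6 and 88.1 CPM in the controls (log2 fold change 0.96 ± 0.22 (SE), adjusted p = 0.0228). *ITGB1*, the beta chain that pairs with it, had 774, 662, 664, 593 and 839.7 CPM and 287, 395 and 449 CPM (log2 fold change 0.91 ± 0.22 (SE), adjusted p = 0.0274). Both genes had no overlap between the groups. *MRC2*, an endocytic collagen receptor with the highest mean CPM of the list, had 615, 1209.8, 1114, 771 and 839 CPM and 529, 826 and 719 CPM, with overlap (log2 fold change 0.40 ± 0.28 (SE), adjusted p = 0.357). Without control rabbit 1, control rabbit 2, Perthes rabbit 3 or Perthes rabbit 5, 0 receptors passed.

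Summed marker levels of other cell types did not overlap between the groups for some types, and overlapped for osteoblast and osteocyte and for adipocyte markers. Fibroblast markers (*PDGFRA*, *DCN*, *LUM*, *THY1*, *FAP*, *DPT*, *PI16* and *DPP4*) summed to 1692 to 3955 CPM in the Perthes rabbits and 589 to 1659 CPM in the controls. Of the 7 tested, *THY1* was called higher, and *PI16*, at 3 counts or fewer in every library, was not tested. Osteoblast and osteocyte markers summed to 1728 to 3097 CPM in the Perthes rabbits and 1187 to 2325 CPM in the controls, with 0 of 9 called, and adipocyte markers to 129 to 1467 CPM in the Perthes rabbits and 478 to 1429.9 CPM in the controls, with 0 of 5 called. Osteoclast markers summed to 2774 to 5619.6 CPM in the Perthes rabbits and 1307 to 2369.5 CPM in the controls, with 2 of 6 called higher, and macrophage markers to 399 to 1375 CPM in the Perthes rabbits and 345 to 364 CPM in the controls, with 3 of 5 called higher. The sums of 3 blood lineages were lower in every Perthes rabbit than in any control. Neutrophil markers summed to 24.8 to 1776 CPM in the Perthes rabbits and 6701 to 22125 CPM in the controls (3 of 6 called lower). B cell markers summed to 5.20 to 24.4 CPM in the Perthes rabbits and 25.0 to 41.9 CPM in the controls. Of the 4 B cell markers tested, 1 was called lower. Megakaryocyte markers summed to 6.59 to 96.2 CPM in the Perthes rabbits and 152 to 419 CPM in the controls (1 of 4 called lower). The part of these cell types in the collagen differences was not tested.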

How the data were processed

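Ribosomal RNA was removed from total RNA of the femoral heads of 5 Perthes and 3 control rabbits before directional libraries were made. HISAT2 2.0.4 was used for mapping, and RSEM 1.1.17 with HTSeq 1.99.2 for quantification, as named in the submitters' processing notes and methods. The authors deposited expected counts per gene without normalization, in which a read that fits several genes is shared among them, so chains with near-identical copies are uncertain. *COL6A2*, *COL6A5* and *COL6A6* had counts that were not whole. A repeat of the per-sample values in another 8 columns was left out, and the small RNA data were not used here. Groups come from the sample labels, and the third control, whose code and title carry different numbers, was taken as control rabbit 3. Each sample is taken as a separate rabbit, as the study's methods state.

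Expected counts were rounded to whole numbers. With edgeR 4.0.16 (R 4.3.3), libraries were scaled by TMM, low genes were removed by filterByExpr, and groups were compared by the quasi-likelihood test with Benjamini-Hochberg adjustment for the 15305 genes left. A gene was called at an adjusted p below 0.05. SEs were obtained as the log2 fold change over the root of F. At 26757087 to 29461482 counts per library, counting limited only members near 1 CPM. Shares and ratios used the rounded counts. On simulated data, where 200 of 15305 genes had a log2 difference of 2, edgeR recovered 87.5% with 8 wrong calls. DESeq2 1.42.0 recovered 88.5% with 35 wrong calls. The data were drawn a single time, with the spread between rabbits taken from the trend over all genes. These rates therefore do not hold for members whose own spread was larger. Permutation tests used scipy 1.17.1. The members, classes, gene lists and tests were chosen with earlier results of these data known.

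Values in every rabbit are given for members with an adjusted p below 0.05, for the member of each class with the highest mean CPM, and for those with the largest log2 fold change in each direction in each class. For the other lists they are given for the 4 largest changes in each direction among called genes and for the gene with the highest mean CPM. *COL4A4*, the partner of *COL4A3*, was added. Neighbouring genes were read from RefSeq's gene table for mOryCun1.1, a different rabbit assembly, in which 41 of the 42 members matched by gene ID. No coordinates were taken from it. Planned descriptions of protein and promoter sequences were not analysed here, and part of 1 marker list is not reported here. The alternatives tried were DESeq2, its size factors, library totals alone, no filter, at least 10 counts in every sample, the replicate number as a block, other thresholds and each rabbit left out in turn. TMM factors without the collagen chain genes and the study's thresholds on the DESeq2 fit were added after the data had been seen.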

Additional observations from a re-analysis of the deposited data

Results flagged for a closer look

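In 15 of the 40 tested members, 1 Perthes rabbit lay farther from the other 4 than Dixon's test at the 95% level allows. The test was run on CPM without a log scale. For normally distributed values chance would flag about 1 in 20 groups, or 2 of 40. CPM can be skewed to high values, so this rate may not apply and the 15 do not measure an excess over chance. The members are not independent, since partner chains move together. Perthes rabbit 4 was the high one in 12 of the 15. For the cartilage chains its CPM was 11680.0 for *COL11A1* (2509 to 4568 in the other 4), 7774 for *COL10A1* (434 to 2121), 6073 for *COL11A2* (1297 to 2557), 3699 for *COL9A1* (303 to 1153), 1935 for *COL9A2* (256 to 675) and 1684 for *COL9A3* (237 to 631). For the type VI chains it was 2997 for *COL6A3* (1237 to 1590.0), 1539.8 for *COL6A2* (857 to 977) and 1415 for *COL6A1* (712 to 866). Among low chains it was 3.42 for *COL28A1* (0.236 to 1.102), 2.84 for *COL4A5* (0.204 to 0.955) and 1.89 for *COL4A6* (0.135 to 0.300).

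The other 3 outliers were in different rabbits. *COL4A3* was 47.0 CPM in Perthes rabbit 2 (1.32 to 7.35 in the other 4), *COL5A1* was low at 719.5 CPM in Perthes rabbit 1 (1119 to 1263), and *COL6A6* was 5.21 CPM in Perthes rabbit 3 (0 to 0.540).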

How the results depend on the processing

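Collagen chain genes called higher numbered 10, and 0 were called lower. DESeq2 gave 16 higher and 1 lower. Collagen processing genes called higher numbered 8 and became 13 with DESeq2, 5 with library totals alone and 3 beyond a log2 fold change of 1. Collagen receptor genes called higher numbered 2 and became 1 with library totals alone and 0 beyond a log2 fold change of 1. At the study's thresholds (a log2 fold change of 2 with an adjusted p of 1e-05) all 3 lists had 0 higher with edgeR's p-values. With DESeq2, the test the study used, an alternative added after the data had been seen, 2 chain genes (*COL5A3* and *COL8A1*), 1 processing gene (*P4HA3*) and 0 receptors were higher at these thresholds. Leaving out each rabbit gave 0 to 11 chain genes higher, 0 to 2 lower, 0 to 9 processing genes higher and 0 to 2 receptors higher. DESeq2's size factors, no filter, at least 10 counts in every sample and TMM factors without the collagen genes kept the counts of each of the 3 lists within 1.5 times, as did library totals alone for the chain genes (7 higher). Within the fibrillar class, *COL3A1* and *COL5A2* lost their call without the filter and with library totals alone, leaving 1 of 3. The type VI chain *COL6A2* lost its call with library totals alone. Library totals alone moved the share of lower calls over all genes from 58.8% to 71.6%. No called member changed direction under any alternative.

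When the replicate number was a block (3 controls numbered as Perthes rabbits 1 to 3), 0 chain, 0 processing and 0 receptor genes passed in edgeR and 0 genes of the whole table. In that replicate block fit 15 chain genes were higher and 1 lower at an unadjusted p below 0.05. The 10 called chains had adjusted p from 0.107 to 0.194 in that fit. The deviations of same-numbered rabbits correlated at -0.32, 0.16 and -0.24, and not every rabbit correlated best with its own number. The sample labels name no pairs, and a check on 3 controls cannot settle whether the numbers pair the rabbits. With 3 controls, and with members below 3 CPM resting on few counts, differences in low chains were beyond this depth.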

Other observations

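Within the Perthes group, *COL1A1*, *COL1A2* and *COL13A1* put the 5 rabbits in the same order of CPM, with rabbit 2 highest, followed by rabbits 3, 5, 4 and 1, and *COL3A1* put them in exactly the reverse order. *COL1A1* and *COL3A1* share a library total, the order was noticed after the values were seen, and it was not tested.

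Another 19 entries of the table were described as collagen chains without a symbol of that form, and 3 of them had over 100 counts in any library. Besides *LOC100340124*, these were *LOC103346860* and *LOC103347362*, both described as alpha-1(XVIII) chains, of a basement membrane collagen from which endostatin is cut. *LOC103346860* had 22.3, 22.5, 32.3, 19.7 and 38.8 CPM in the Perthes rabbits and 7.29, 7.37 and 8.95 CPM in the controls (log2 fold change 1.78 ± 0.26 (SE), adjusted p = 0.0118 by edgeR's quasi-likelihood test). *LOC103347362* had 14.5, 18.3, 28.2, 18.1 and 31.4 CPM and 6.22, 5.68 and 7.02 CPM (log2 fold change 1.81 ± 0.29 (SE), adjusted p = 0.0122). All Perthes rabbits were above all controls for both entries, whose reads may be shared between them. Both were chosen after their values were seen.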
